A study of Mus musculus with 9 samples.

Results

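The genes described here are 9 regulators and products of the osteoblast lineage, chosen by name: Runx2, Sp7, Alpl, Spp1, Tnfrsf11b, Msx2, Postn, Pth1r and Dlx5. All 9 were found among the 55453 rows of the deposited count table, and all 9 passed the filter on low counts that left 13568 genes for testing, Pth1r only through its counts in unfed cells. Their RNA was measured by sequencing in ST2, a stromal cell line set up from a mouse bone marrow culture and labelled wild type (WT). ST2 cells at about 80% confluence were given human blood neutrophils that had been kept frozen for at least 18 h and then stained with a fluorescent dye, at 10 neutrophils per ST2 cell. The series title links the uptake of dying cells (efferocytosis) to osteoblastic differentiation. The libraries formed 3 groups of 3: ST2 cells fed for 24 h and sorted for dye uptake (fed 24 h), ST2 cells fed for 3 h and sorted for dye uptake (fed 3 h), and unfed ST2 cells of the 24 h time (unfed 24 h). Sorting kept cells whose dye signal matched at least a whole neutrophil, so feeding and selection for uptake cannot be told apart, and without unfed cells at 3 h, feeding and time cannot be told apart in the fed 3 h group. All data come from 1 cell line, and the labels do not say whether the replicates were separate cultures, so p-values measure only the spread between these libraries.

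Osteoblasts form bone in steps. Runx2 is the transcription factor that commits mesenchymal cells to the lineage, Sp7 (osterix) acts after it, and the homeodomain factors Dlx5 and Msx2 bind related DNA sites and act upstream of or beside it. Committed cells make the tissue-nonspecific alkaline phosphatase Alpl, which removes the mineralization inhibitor pyrophosphate, and lay down matrix proteins such as osteopontin (Spp1) and periostin (Postn). They also read parathyroid hormone through Pth1r and release osteoprotegerin (Tnfrsf11b), a decoy that binds the osteoclast factor RANKL. Marrow stromal cells express several of these genes before they differentiate.

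The sequences just before the transcription starts are shown for Alpl, the gene with the largest change here, and for Spp1, the most abundant of the 9, because both were called in every comparison. A 30-base stretch is added for Runx2, which holds the same short motif as Spp1; it lies upstream of the RefSeq start but inside a Runx2 exon of GENCODE M21, which covers 170 bases of that window. RefSeq (build GRCm38.p6) gave start windows for 6 of the 9 genes, 11 windows in all: Runx2, Alpl, Spp1, Msx2, Postn and Pth1r. Dlx5, Sp7 and Tnfrsf11b were not matched. Sequences run 5′ to 3′ on the gene's strand, Alpl at chr4:137796385-137796634 (minus strand), Spp1 at chr5:104434861-104435110 (plus strand) and Runx2 at chr17:44814690-44814719 (minus strand), and capitals mark the RUNX core, which the Alpl window does not hold.
Alpl: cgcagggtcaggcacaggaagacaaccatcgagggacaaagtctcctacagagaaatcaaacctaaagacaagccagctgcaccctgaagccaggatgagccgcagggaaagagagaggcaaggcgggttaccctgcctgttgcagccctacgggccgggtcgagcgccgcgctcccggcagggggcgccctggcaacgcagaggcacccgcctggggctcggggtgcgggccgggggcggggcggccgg
Spp1: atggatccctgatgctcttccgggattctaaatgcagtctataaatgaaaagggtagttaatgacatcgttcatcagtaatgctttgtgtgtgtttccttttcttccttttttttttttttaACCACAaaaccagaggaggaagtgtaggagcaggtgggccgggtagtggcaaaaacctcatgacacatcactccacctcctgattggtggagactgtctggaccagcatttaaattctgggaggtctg
Runx2: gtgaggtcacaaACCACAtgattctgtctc
The RUNX core was searched as TGTGGT on both strands in the 250 bases before each start, so it reads ACCACA here. It was present in 2 of the 11 windows, 1 of Spp1 and 1 of Runx2, against 14.0% of 32851 mouse start windows of the same length. In Spp1 122 bases lay between the match and the start, and in Runx2 74 bases. The homeodomain core TAATTG was present in 1 window, of Postn (7.17% of all windows). The AP-1 site TGANTCA (6.75% of all) and the cAMP response element TGACGTCA (1.55% of all) were present in 0 of the 11 windows. The searched motifs did not overlap in these windows, and a match is a description of letters, not of binding.

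Total counts per library were 49387906 to 55971275 in fed 24 h, 46322396 to 51205019 in fed 3 h and 44442664 to 48736073 in unfed 24 h cells. Mitochondrial genes took 1.78% to 2.22%, 1.12% to 1.58% and 1.48% to 1.61% of counts in the same order of groups, and 2 genes that collect ribosomal RNA reads took 0.201% to 0.350%, 0.0927% to 0.249% and 0.0904% to 0.115%. Of 10 markers of marrow stromal cells, 9 were testable, and only Thy1 was near 0, with 1 count in all. Their summed level, set mostly by Cxcl12, was 9656 to 10180 CPM (counts scaled to the size of the library) in the fed 24 h libraries, 3547 to 3696 CPM in the fed 3 h libraries and 6837 to 8491 CPM in the unfed ones. The stromal sum therefore differed between the groups, but not all of its markers moved with it. Cxcl12, Kitl, Ly6a, Vcam1, Pdgfra and Pdgfrb had fewer counts in fed 3 h than in unfed cells. Prrx1 (40928 against 37986), Eng (377 against 341) and Nt5e (215 against 146) had more. The part of the stromal sum in the changes of the genes below was not tested. Mouse genes of 12 neutrophil markers, 1 of them testable, summed to 3.43 to 4.31, 0.755 to 1.42 and 2.32 to 2.95 CPM in the same order of groups, nearly all from Camp, with S100a9, Ngp and Retnlg at 0 counts. The 9 macrophage markers, 3 of them testable, summed to 7.70 to 9.53, 4.55 to 5.33 and 4.81 to 6.88 CPM, with Adgre1, C1qa, C1qb and Marco at 0. Most of this sum was Lyz2, with 1070, 394 and 605 counts per group in that order. Cd68 (204, 251 and 170 counts), Csf1r (35, 50 and 22), Mrc1 and Ptprc went the other way, each with the most counts in fed 3 h cells. The macrophage sum therefore does not describe its markers as a set. The part of these markers in the changes below was not tested either. Whether reads of the engulfed human cells entered the mouse gene counts was not tested. Of the defining genes of mature osteoblasts, Bglap (osteocalcin) had 2, 2 and 1 counts in all fed 24 h, fed 3 h and unfed libraries, Bglap2 had 9, 0 and 5, and Ibsp (bone sialoprotein) had 13, 1 and 7. These 3 markers were close to 0 and did not pass the filter, so they were not tested. The testable markers of the list were Dmp1 and Phex, both described with the matrix genes below.

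The 9 genes spanned a wide range of levels. Levels of different genes are compared per length, as RPKM (CPM divided by the exon length in kilobases, from GENCODE M21). Spp1 led with 2139 ± 105 RPKM in fed 24 h, 1018 ± 51.2 in fed 3 h and 1383 ± 84.4 in unfed cells (SD, n = 3 each), and it took 0.333% to 0.376%, 0.160% to 0.171% and 0.217% to 0.247% of all counts. In unfed cells Tnfrsf11b (17.8 RPKM), Runx2 (7.88), Dlx5 (5.03), Alpl (2.74), Postn (1.45), Msx2 (0.809), Sp7 (0.232) and Pth1r (0.103) followed, and no neighbours in that order had overlapping libraries. The order was the same in fed 24 h cells. In fed 3 h cells Alpl (0.492 RPKM) dropped below Postn (1.36 ± 0.0557) and Msx2 (1.26 ± 0.0668), 2 neighbours that were little further apart than their spread. Sp7 and Pth1r were the lowest of the 9 in every group.

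**Figure D1:**
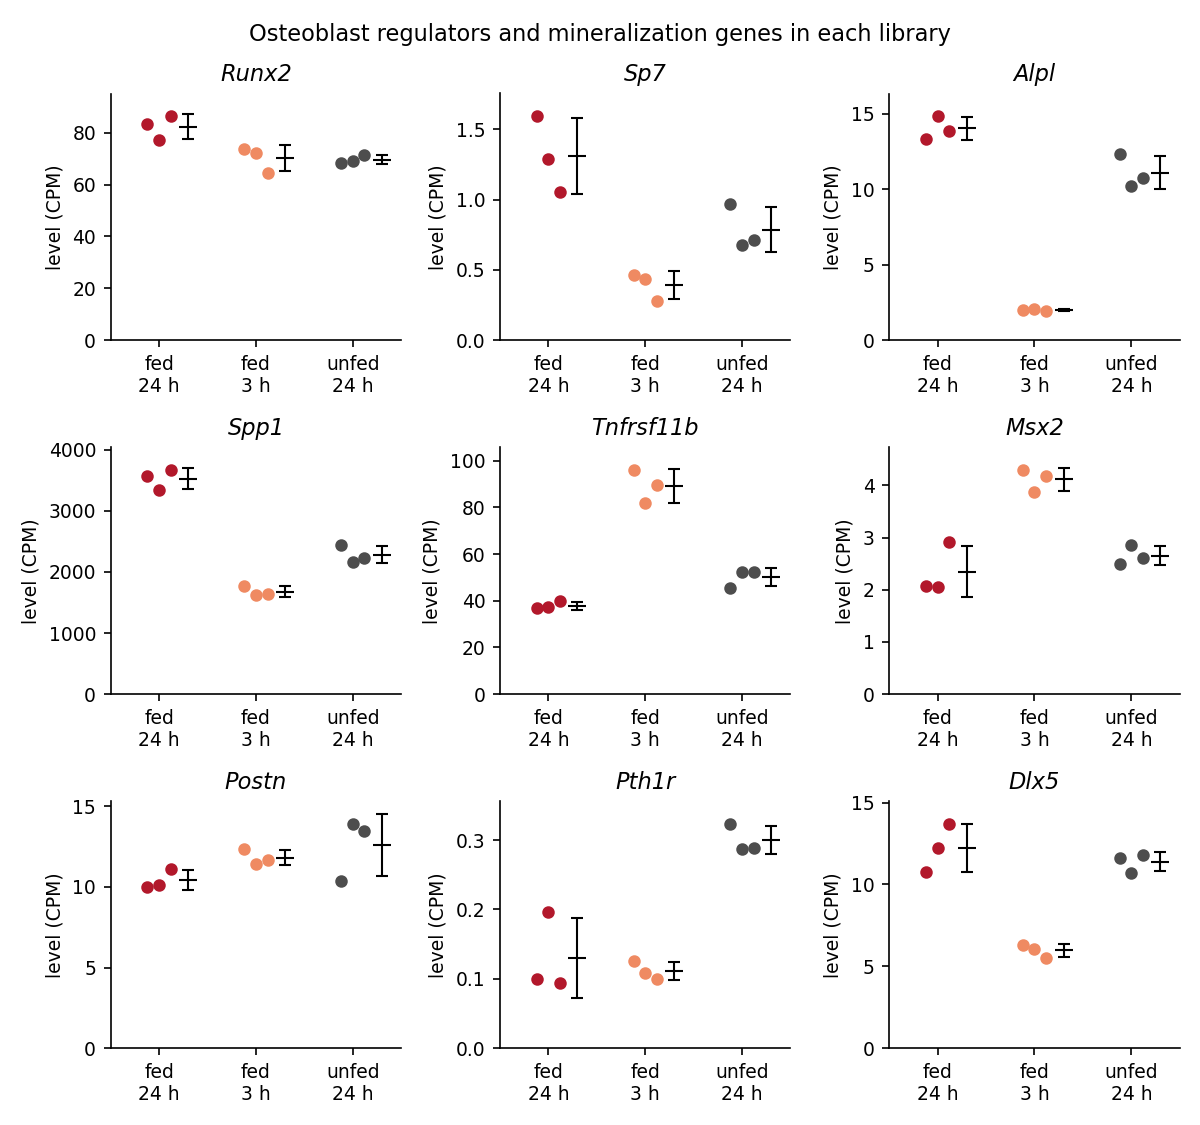
Level of each gene in CPM (linear axes from 0) in the 3 libraries of each group (points), with mean and SD beside them. Alpl, Dlx5 and Sp7 are lowest and Tnfrsf11b and Msx2 highest in the fed 3 h libraries, Spp1 is highest in the fed 24 h libraries, and Pth1r is highest in the unfed ones.

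Against unfed cells collected at that time, cells fed for 24 h had more Runx2, Sp7, Alpl and Spp1 and less Tnfrsf11b, Postn and Pth1r. The edgeR quasi-likelihood test, adjusted over all 13568 genes by the Benjamini-Hochberg method and called at an adjusted p under 0.05, called 4 of the 9 higher and 3 lower. Over all genes tested, 30.8% were called, 14.9% higher and 15.9% lower. The median log2 fold change was 0.10 for the 9 and 0.00 for all genes (median absolute values 0.34 and 0.14). The directions of all 7 held with any 1 library left out, but not all calls: without fed 24 h replicate 1, unfed replicate 2 or unfed replicate 3, Tnfrsf11b was the 1 gene still called lower (log2 of Postn -0.24, -0.19 and -0.22, of Pth1r -1.02, -1.20 and -1.20 in the same order), and 3 genes were called higher, without Sp7. Called with a change of at least 1 on the log2 scale was 1 of the 9, Pth1r, against 1.11% of all genes, and since Pth1r was tested only through its high counts in unfed cells, nothing is read from that count. The libraries of the 2 groups did not overlap for 6 of the 9 genes, against 43.2% of all genes. Pth1r, whose fall the filter favoured, is among these 6 and among the 3 called lower. As in any bulk sample, fewer cells with a transcript and less of it per cell cannot be told apart.

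Against the same unfed cells, which were collected at another time, cells fed for 3 h had less Alpl, Dlx5, Sp7, Spp1 and Pth1r and more Tnfrsf11b and Msx2. The test called 2 of the 9 higher and 5 lower, where 50.6% of all genes were called, 25.1% higher and 25.5% lower. The median log2 fold change of the 9 was -0.44, against -0.01 for all genes (median absolute values 0.83 and 0.22). Called with a change of at least 1 on the log2 scale were 3 of the 9 (Alpl, Sp7 and Pth1r), against 5.27% of all genes. Sp7 only just reached this size (-1.0053) and fell short of it with DESeq2 size factors in edgeR (-0.999). Pth1r, whose fall the filter favoured, is among these 3 and among the 5 called lower. In 7 of the 9, Pth1r again among them, the libraries of the groups did not overlap, against 58.2% of all genes. None of the 7 calls ended under the 16 alternatives tried, or 15 for Pth1r, which a stricter filter removed. Since the 9 genes were picked with results of these data known, their share of calls is a description and sets them apart from no other group of genes.

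Between the fed groups, where time differed and both had been sorted for uptake, cells fed for 24 h had more Alpl, Sp7, Spp1, Dlx5 and Runx2 and less Tnfrsf11b and Msx2 than cells fed for 3 h. Of the 9 genes, 5 were called higher and 2 lower, against 60.9% of all genes called, 30.8% higher and 30.2% lower. Called with a change of at least 1 on the log2 scale were 5 of the 9 (Alpl, Sp7, Tnfrsf11b, Spp1 and Dlx5), against 8.73% of all genes. Dlx5 lay close to this size (1.03), with values from 0.95 to 1.12 when 1 library was left out. The libraries did not overlap for 8 of the 9, against 65.9% of all genes. This comparison also tests, gene by gene, whether the changes at 24 h and at 3 h against unfed cells differ.

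**Figure D2:**
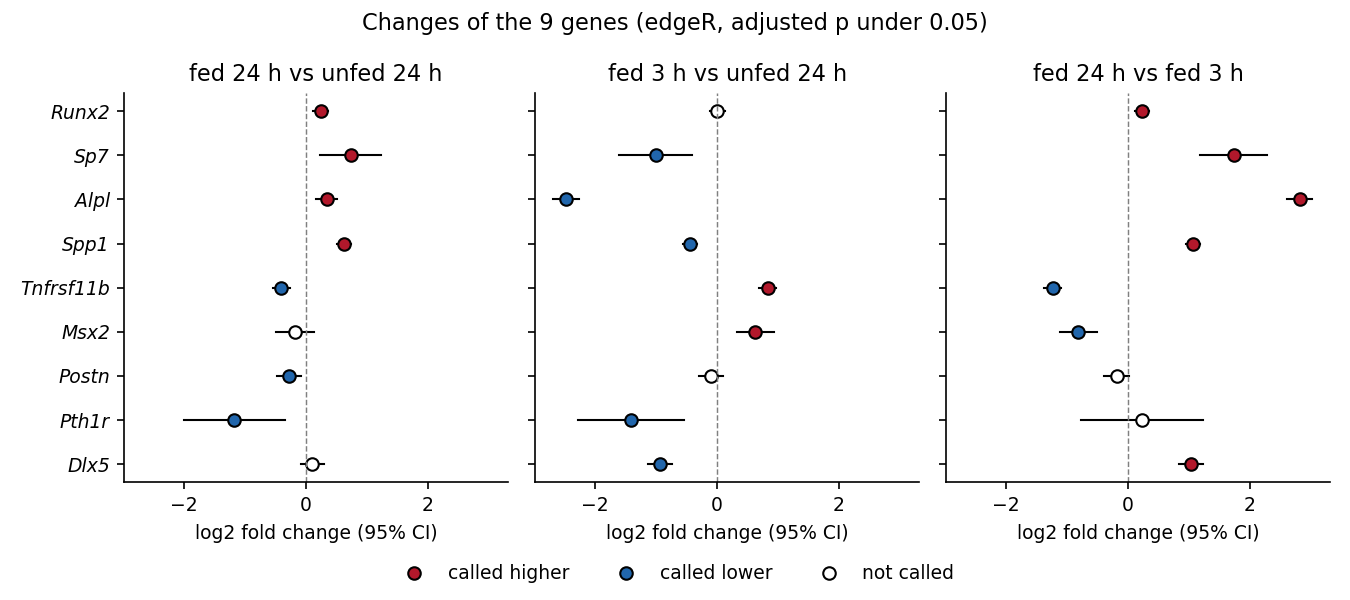
Log2 fold change of each gene (points) with its 95% confidence interval (lines) in the 3 comparisons, filled red where called higher, blue where called lower and white where not called. Alpl has the largest change in the comparisons that involve fed 3 h cells, and Pth1r has the widest intervals.

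Among the transcription factors, Runx2 (ENSMUSG00000039153.16, chromosome 17, 44495987 to 44814797, GRCm38) had 83.5, 77.1 and 86.4 CPM in fed 24 h, 73.7, 72.2 and 64.4 CPM in fed 3 h and 68.2, 69.2 and 71.3 CPM in unfed libraries. All fed 24 h libraries lay above all others, and the fed 3 h libraries lay on both sides of the unfed ones. Runx2 rose in fed 24 h against unfed cells (log2 0.24, SE 0.0559, edgeR adjusted p = 0.00443). Against fed 3 h cells the rise was 0.23 (SE 0.0558, edgeR adjusted p = 0.00194). In fed 3 h against unfed cells it was not called (0.01, 95% interval -0.11 to 0.13, edgeR adjusted p = 0.903), and the sign turned without fed 3 h replicate 1 or 2 or unfed replicate 1. An antisense gene, Runx2os1, shares 519 bases of exon with Runx2 and had 110, 126 and 88 counts in all fed 24 h, fed 3 h and unfed libraries, against 13107, 10054 and 9743 for Runx2.

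Sp7 (ENSMUSG00000060284.7, chromosome 15, 102356606 to 102367182), which is needed for osteoblasts to form from Runx2-expressing precursors, was scarce. It had 80, 72 and 56 counts in fed 24 h, 22, 20 and 14 in fed 3 h and 45, 33 and 32 in unfed libraries, or means of 1.31 ± 0.273, 0.392 ± 0.0980 and 0.787 ± 0.160 CPM (SD, n = 3 each). The 3 groups did not overlap. Sp7 fell in fed 3 h against unfed cells (log2 -1.01, SE 0.278, edgeR adjusted p = 0.00684). It was 1.74 higher on the log2 scale in fed 24 h than in fed 3 h cells (SE 0.258, edgeR adjusted p = 2.61e-05). Its rise in fed 24 h against unfed cells (0.73, SE 0.232, edgeR adjusted p = 0.0256) kept its direction but lost its call without fed 24 h replicate 1 or 2 or unfed replicate 2 or 3 (log2 0.58 to 0.74, adjusted p 0.0533 to 0.123 in those 4 fits).

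Dlx5 (ENSMUSG00000029755.10, chromosome 6, 6877805 to 6882085), a homeodomain activator induced by bone morphogenetic proteins (BMPs), had 10.8, 12.2 and 13.7 CPM in fed 24 h, 6.33, 6.07 and 5.54 CPM in fed 3 h and 11.6, 10.7 and 11.8 CPM in unfed libraries. The fed 3 h libraries lay below all others, and the fed 24 h and unfed libraries overlapped. Dlx5 fell in fed 3 h cells (log2 -0.93, SE 0.0937, edgeR adjusted p = 9.29e-07). In fed 24 h against unfed cells it was not called (0.10, 95% interval -0.08 to 0.29, edgeR adjusted p = 0.396). Dlx6, its paralogue and a gene picked here after its values were seen, had 180, 62 and 151 counts in the fed 24 h, fed 3 h and unfed groups, with a log2 fold change of -1.32 in fed 3 h against unfed cells (edgeR adjusted p = 0.000106).

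Msx2 (ENSMUSG00000021469.9, chromosome 13, 53466884 to 53473074), a homeodomain repressor, had 2.07, 2.05 and 2.91 CPM in fed 24 h, 4.30, 3.87 and 4.18 CPM in fed 3 h and 2.50, 2.86 and 2.60 CPM in unfed libraries. Here the fed 3 h libraries were above all others. Msx2 rose in fed 3 h against unfed cells by 0.63 on the log2 scale (SE 0.143, edgeR adjusted p = 0.00165). In fed 24 h against unfed cells it was not called (-0.18, 95% interval -0.49 to 0.14, edgeR adjusted p = 0.392), with fed 24 h replicate 3 above and the other 2 below every unfed library. Between fed 24 h and fed 3 h cells the log2 difference was -0.81 (SE 0.143, edgeR adjusted p = 0.000137).

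Alpl (ENSMUSG00000028766.10, chromosome 4, 137741733 to 137796384), the mineralization enzyme whose upstream sequence is printed above, had 13.3, 14.8 and 13.9 CPM in fed 24 h, 1.97, 2.07 and 1.92 CPM in fed 3 h and 12.3, 10.2 and 10.7 CPM in unfed libraries. The fed 3 h libraries held 94, 95 and 96 counts, and each of the others at least 482. Alpl fell in fed 3 h against unfed cells by 2.48 on the log2 scale (SE 0.0995, edgeR adjusted p = 6.35e-11), to 0.180 of the unfed level. In absolute size this ranked 73 among the 13568 genes. It rose in fed 24 h against unfed cells (0.34, SE 0.0798, edgeR adjusted p = 0.00477), with no overlap between these groups. The level in fed 24 h was 7.06 times that in fed 3 h cells (log2 2.82, SE 0.0976, edgeR adjusted p = 1.09e-11).

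Spp1 (ENSMUSG00000029304.14, chromosome 5, 104435118 to 104441050), whose product osteopontin binds integrins and mineral, had 3575, 3332 and 3668 CPM in fed 24 h, 1774, 1617 and 1643 CPM in fed 3 h and 2435, 2170 and 2231 CPM in unfed libraries. The 3 groups did not overlap, with fed 24 h highest and fed 3 h lowest. Spp1 rose in fed 24 h against unfed cells (log2 0.63, SE 0.0557, edgeR adjusted p = 4.39e-06). It fell in fed 3 h against unfed cells (-0.44, SE 0.0556, edgeR adjusted p = 9.05e-06). Fed 24 h cells held 2.10 times the Spp1 level of fed 3 h cells (log2 1.07). The overlapping same-strand gene Gm42793 shares 309 bases of exon with Spp1 and had at most 107 counts in any group, against at least 241214 for Spp1.

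Postn (ENSMUSG00000027750.16, chromosome 3, 54361109 to 54391037), a matrix protein of the periosteum, moved by at most 0.27 on the log2 scale. It had 9.99, 10.1 and 11.1 CPM in fed 24 h, 12.4, 11.4 and 11.7 CPM in fed 3 h and 10.4, 13.9 and 13.5 CPM in unfed libraries. Unfed replicate 1 lay among the fed 24 h libraries, so the groups overlapped, whereas every fed 24 h library lay below every fed 3 h one. The fall in fed 24 h against unfed cells (log2 -0.27, SE 0.0939, edgeR adjusted p = 0.0372) kept its direction but lost its call without fed 24 h replicate 1 or 2 or unfed replicate 2 or 3, by limma-voom and in the fit of the 6 libraries compared (adjusted p 0.0503 to 0.183). Postn was not called in fed 3 h against unfed cells (-0.09, edgeR adjusted p = 0.443), although it was without unfed replicate 1 (-0.21, adjusted p = 0.0271). Nor was it called between the fed groups (-0.18, edgeR adjusted p = 0.105), although it was in the fit of 6 libraries (-0.18, adjusted p = 0.0371) and without unfed replicate 1 (-0.18, adjusted p = 0.0282).

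Pth1r (ENSMUSG00000032492.14, chromosome 9, 110722085 to 110747145), the receptor for parathyroid hormone and its related peptide, was close to the detection limit. It had 5, 11 and 5 counts in fed 24 h, 6, 5 and 5 in fed 3 h and 15, 14 and 13 in unfed libraries. Every unfed library was above every fed one. The gene passed the filter only through the unfed libraries, in which it was high, so its falls were favoured by the filter and are given as values: -1.18 in fed 24 h (SE 0.388, edgeR adjusted p = 0.0314) and -1.41 in fed 3 h (SE 0.411, edgeR adjusted p = 0.00945), both against unfed cells. The call at 24 h was lost with no filter and without fed 24 h replicate 1 or 3 or any unfed replicate (adjusted p 0.0682 to 0.118). Between the fed groups it was not called (0.23, 95% interval -0.76 to 1.23, edgeR adjusted p = 0.685). Myl3, an antisense neighbour that shares 95 bases of exon, had 1 count in each group.

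Tnfrsf11b (ENSMUSG00000063727.3, chromosome 15, 54250619 to 54278484) had 36.8, 37.1 and 39.9 CPM in fed 24 h, 96.0, 81.7 and 89.6 CPM in fed 3 h and 45.5, 52.3 and 52.5 CPM in unfed libraries. Here too the groups did not overlap, with fed 3 h highest and fed 24 h lowest. This osteoclast inhibitor rose in fed 3 h against unfed cells (log2 0.83, SE 0.0652, edgeR adjusted p = 6.51e-08). It fell in fed 24 h against unfed cells (-0.40, SE 0.0667, edgeR adjusted p = 0.000472). Its ligand RANKL (Tnfsf11) had 20, 34 and 25 counts in all fed 24 h, fed 3 h and unfed libraries, against 6049, 12822 and 7015 for Tnfrsf11b, and was not called in either comparison with unfed cells (-0.50, edgeR adjusted p = 0.445 in fed 24 h and 0.40, edgeR adjusted p = 0.453 in fed 3 h).

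**Figure D3:**
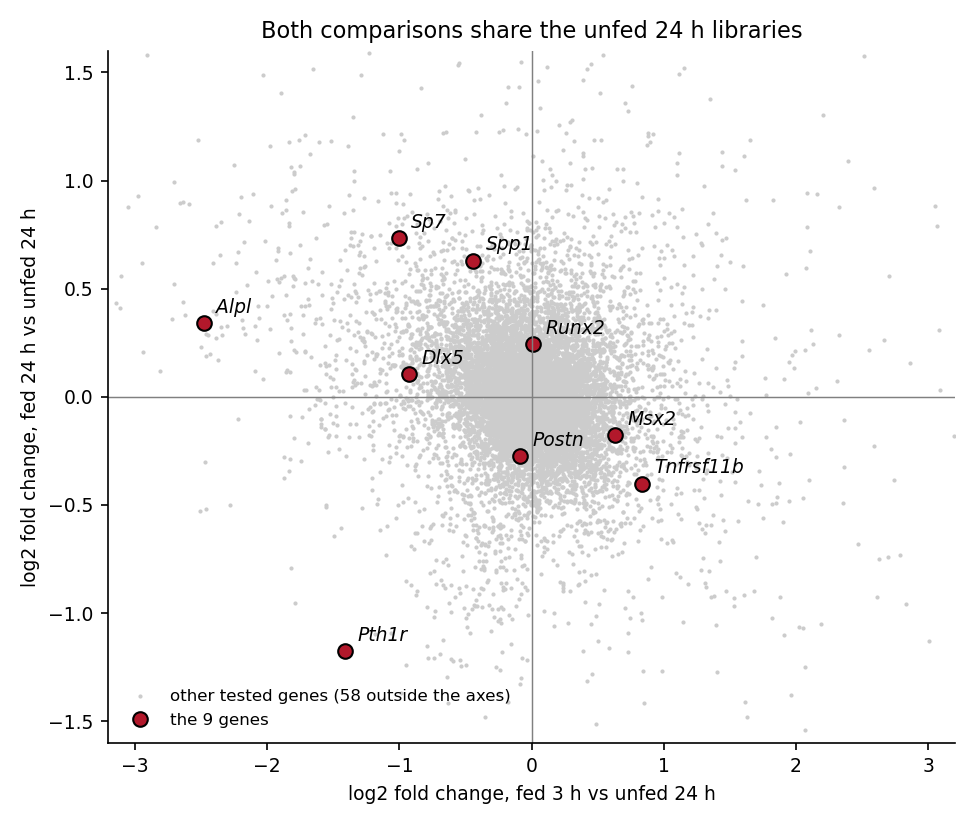
Log2 fold change in fed 3 h (horizontal) and in fed 24 h (vertical) against unfed 24 h cells for the 9 genes (red) and the other tested genes (grey, 58 outside the axes). Alpl, Sp7 and Spp1 lie at upper left, Tnfrsf11b and Msx2 at lower right and Pth1r at lower left; both axes use the same unfed libraries, so no relation between them is read from the plot.

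The genes whose pair of log2 fold changes lay nearest to that of a member, among those with a mean of at least 5 CPM, were found for the 5 members called in both comparisons with unfed cells. Predicted genes (Gm and Rik symbols), named pseudogenes and date-like symbols were left out of this search and its counts. For Alpl (-2.48 in fed 3 h, 0.34 in fed 24 h) they were Colec10 (-2.50 and 0.23) and Mc5r (-2.62 and 0.38), and only 2 of 9463 genes lay within 0.2 of it. Spp1 was nearest to Arhgap18 (-0.44 and 0.61) and Ptpn13 (-0.47 and 0.64), with 33 genes within 0.2. Near Tnfrsf11b lay Flrt2 (0.80 and -0.34), with 39 genes within that distance. Zfp36l1 (-0.98 and 0.80) and Gpx3 (-0.94 and 0.69) lay nearest to Sp7, with 6 within 0.2. Nothing lay that close to Pth1r, whose nearest gene was Arc at a distance of 0.870. The filter favoured both falls of Pth1r, and the genes compared were far more abundant, so nothing is read from that distance.

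Other genes of bone matrix and mineralization moved in both directions. In fed 24 h against unfed cells, 8 of the 17 tested of 23 were called higher and 1 lower (median 0.13, all genes 0.00), where 14.9% of all genes were called higher and 15.9% lower. Mgp, an inhibitor of mineralization, averaged 188 ± 2.26 CPM in fed 24 h and 95.8 ± 10.2 CPM in unfed cells (SD, n = 3 each; log2 0.98, edgeR adjusted p = 1.63e-06). Dmp1, an acidic matrix protein of osteocytes, had 414 counts in all fed 24 h libraries, against 135 in all unfed ones (log2 1.43, edgeR adjusted p = 0.00018). Phex, an endopeptidase of osteoblasts and osteocytes added here after its values were seen, had 265 counts in all fed 24 h libraries, against 123 in all unfed ones (log2 0.92, edgeR adjusted p = 0.00671). Phex was not called in fed 3 h against unfed cells (0.43, edgeR adjusted p = 0.145) or in fed 24 h against fed 3 h cells (0.49, edgeR adjusted p = 0.0633). Omd, an osteoblast proteoglycan, rose by 0.58 and the phosphate transporter Slc20a2 fell by 0.18 on the log2 scale. Col1a1, the main collagen chain of bone, was not called (-0.05, edgeR adjusted p = 0.461).

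In fed 3 h against unfed cells, 6 of these 17 were higher and 7 lower (median 0.02), where 25.1% of all genes were higher and 25.5% lower. The small proteoglycans Omd (-2.08) and Ogn (-1.22) fell, as did Mgp (-0.21). The phosphate transporters Slc20a1 (1.07) and Slc20a2 (0.91) rose, to 107 ± 20.0 and 142 ± 10.0 CPM in fed 3 h cells, against 50.9 ± 4.02 and 75.3 ± 3.61 CPM in unfed cells (SD, n = 3 each). Col1a1 (0.08, edgeR adjusted p = 0.231) and Dmp1 (-0.09, edgeR adjusted p = 0.766) were not called. Between fed 24 h and fed 3 h cells, 8 were higher and 5 lower (median 0.24; 30.8% and 30.2% of all genes), Omd (2.66), Ogn (1.67) and Dmp1 (1.52) among the higher and Slc20a1 (-1.17), Slc20a2 (-1.09) and Col1a1 (-0.13, edgeR adjusted p = 0.0385) among the lower.

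Of 21 other transcription factors and cofactors of the lineage, 20 were tested. In fed 24 h against unfed cells 4 were higher and 1 lower (median 0.09), so that 25% were called, against 30.8% of all genes. In fed 3 h against unfed cells 10 were higher and 4 lower (median 0.20), or 70% called, against 50.6% of all genes. Lef1, a nuclear partner of WNT signalling, reached 9.86 ± 0.900 CPM in fed 3 h cells, against 3.44 ± 0.654 CPM in unfed cells (SD, n = 3 each; log2 1.52, edgeR adjusted p = 2.82e-07). Runx1, a paralogue of Runx2, rose at both times (0.42 in fed 24 h and 0.61 in fed 3 h). Zfp521, a zinc finger protein that antagonises Runx2, rose by 0.28 in fed 24 h and fell by 0.73 in fed 3 h cells, both against unfed cells. Snai2, a zinc finger repressor, rose in fed 24 h (0.19, edgeR adjusted p = 0.0494) and fell in fed 3 h cells (-0.65). Foxo1, a stress-responsive factor, fell in fed 24 h (-0.15) and rose in fed 3 h cells (0.19, edgeR adjusted p = 0.00345). Between fed 24 h and fed 3 h cells 4 were higher and 9 lower (median -0.14), or 65% called, against 60.9% of all genes, with Zfp521 (1.02) and Snai2 (0.84) among the higher and Lef1 (-1.86) and Twist2 (-0.55), a repressor of osteoblast differentiation, among the lower.

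Inputs from BMP and WNT ligands were called on both sides. Of 31 genes 22 were tested, with 8 higher and 3 lower in fed 24 h against unfed cells (median 0.07), 6 higher and 7 lower in fed 3 h against unfed cells (median -0.04) and 9 higher and 8 lower in fed 24 h against fed 3 h cells (median 0.01). That is 50%, 59.1% and 77.3% of the tested genes of the list called, against 30.8%, 50.6% and 60.9% of all genes. Bmp4, an osteogenic ligand, averaged 201 ± 2.83 CPM in fed 24 h, 36.7 ± 3.73 CPM in fed 3 h and 164 ± 19.8 CPM in unfed cells (SD, n = 3 each). It fell by 2.16 on the log2 scale in fed 3 h against unfed cells (edgeR adjusted p = 3.29e-11) and rose by 0.29 in fed 24 h against unfed cells (edgeR adjusted p = 0.00839). Sfrp1 (1.00), which binds WNT ligands, and Grem1 (0.49), which binds BMPs, rose in fed 24 h against unfed cells, and the signal transducer Smad5 (-0.21) and the receptor Bmpr1a (-0.14) fell. In fed 3 h against unfed cells Sfrp1 (-1.34) and Sfrp2 (-0.98), another WNT-binding protein, fell, although Sfrp2 rose in fed 24 h cells (0.39), and Smurf1 (0.57), a ubiquitin ligase that acts on Smads and Runx2, and the inhibitory Smad7 (0.46) rose. Sfrp1 (2.34) and Bmp4 (2.45) were higher and Smurf1 (-0.67) and Wnt10b (-0.58), an osteogenic WNT ligand, lower in fed 24 h than in fed 3 h cells.

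Of 22 other genes of PTH receptor signalling 20 were tested, all but the ligand Pthlh and the receptor Pth2r, with 4 higher and 3 lower in fed 24 h against unfed cells (median 0.00), 3 higher and 7 lower in fed 3 h against unfed cells (median -0.06) and 6 higher and 3 lower between the fed groups (median 0.05). That is 35%, 50% and 45% of the tested genes of the list called, against 30.8%, 50.6% and 60.9% of all genes. Prkar2a, a regulatory subunit of protein kinase A, fell in fed 24 h (-0.41) and rose in fed 3 h cells (0.41), and Creb1, a transcription factor of the cAMP pathway, fell in both (-0.40 in fed 24 h and -0.35 in fed 3 h cells). The phosphodiesterases Pde4b (0.30) and Pde4a (0.20) rose in fed 24 h cells, and Pde4a fell in fed 3 h cells (-0.33). Arrb1, a desensitizing arrestin (-0.49), and Prkar1a (-0.35) fell and the transcription factor Atf1 (0.23) rose in fed 3 h cells, all against unfed cells. In fed 24 h against fed 3 h cells Pde4a (0.52) and Prkar1a (0.47) were higher and Prkar2a (-0.82) and Atf1 (-0.30) lower. In the RANKL and osteoprotegerin system, 5 of 7 other genes were tested, with 2 higher and 3 not called in fed 24 h against unfed cells (median 0.04), 2 higher and 1 lower in fed 3 h against unfed cells (median 0.36) and 1 in each direction between the fed groups (median -0.08; Sema3a 0.26, Csf1 -0.21). That is 40%, 60% and 40% of the tested genes of the list called, against the same shares of all genes. Csf1, a growth factor of osteoclast precursors, averaged 1049 ± 43.5 CPM in fed 24 h, 1215 ± 99.9 CPM in fed 3 h and 883 ± 49.2 CPM in unfed cells (SD, n = 3 each; log2 0.25 and 0.46 against unfed cells). Il34, which binds the same receptor as Csf1, rose by 0.28 and 0.36, and Sema3a, a semaphorin made by osteoblasts, fell by 0.24 in fed 3 h cells.

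**Figure D4:**
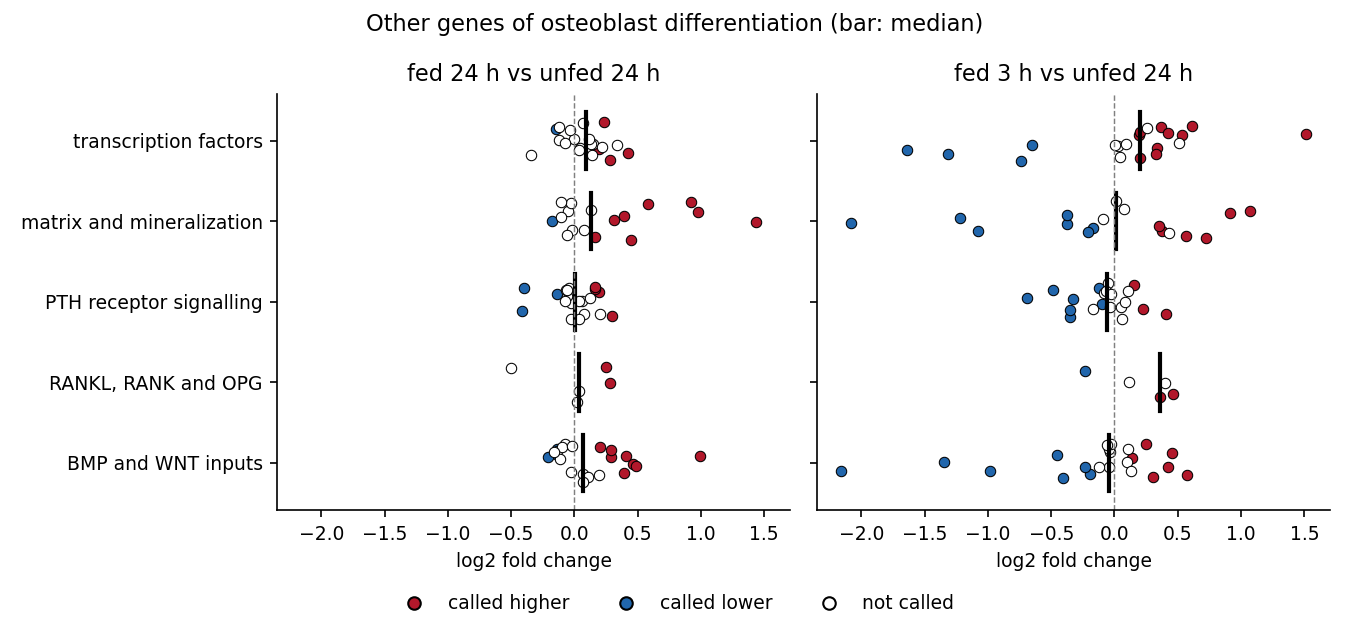
Log2 fold changes of the other tested genes of 5 gene lists in fed 24 h (left) and fed 3 h (right) against unfed 24 h cells, each point a gene, filled red where called higher, blue where called lower and white where not called, with the list's median as a bar. The medians lie between -0.06 and 0.36, and the points spread further in the fed 3 h panel.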

How the data were processed

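Per the submitters' processing notes, reads were handled with STAR 2.7.0f, Subread 1.6.4 (featureCounts) and MultiQC 1.7, with builds GRCm38.p6 and GRCh38.p13. The deposited values are raw read counts per mouse gene symbol, not normalized and not pooled. The annotation release, strand setting and treatment of reads mapping to several places are not stated, and the protocols name 2 different library kits, so counts of overlapping genes are uncertain. Counts were tested with edgeR 4.0.16 in R 4.3.3 (TMM factors, filterByExpr, quasi-likelihood F-test, all 9 libraries fitted together by group, Benjamini-Hochberg adjustment over 13568 genes). The procedure was tested on simulated data. CPM uses the TMM-scaled totals. Alternatives tried were limma-voom (limma 3.58.1), DESeq2 1.42.0 (Wald test), its size factors in edgeR, no filter, a stricter filter, fits of 6 libraries, the replicate number in the model and leaving out each library. Replicates of a group differed by more than counting noise (chi-square per degree of freedom 5.20 to 15.4). The 95% intervals come from the edgeR fit and include the spread between these libraries. The 9 genes, the lists of related genes and the markers were chosen with earlier results of these data known. From each list, the up to 2 called genes per direction and comparison with the largest change are named, if the higher group averages 5 CPM or more, together with Col1a1, Bglap, Bglap2, Ibsp and Dmp1. Tnfsf11 is named beside its decoy. For each gene called in both comparisons with unfed cells, up to 2 genes of the nearest pattern are named, and some of these are not reported here.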

Additional observations from a re-analysis of the deposited data

Results flagged for a closer look

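For 7 of the 9 genes the change against unfed cells differed between 24 h and 3 h of feeding, as tested by the comparison of the fed groups (edgeR, adjusted p under 0.05), where 60.9% of all tested genes were called. Since both changes use the same unfed libraries, the difference is that between the fed groups. The change at 24 h minus the change at 3 h, on the log2 scale, was 2.82 for Alpl, 1.74 for Sp7, 1.07 for Spp1, 1.03 for Dlx5 and 0.23 for Runx2. It was -1.23 for Tnfrsf11b and -0.81 for Msx2. For Postn (-0.18, edgeR adjusted p = 0.105) and Pth1r (0.23, edgeR adjusted p = 0.685) the difference was not called.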

How the results depend on the processing

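Levels of the 9 genes moved by less than 1 SD with raw library totals or DESeq2 size factors. In fed 3 h against unfed cells, all 7 calls held under every alternative that gave a value, and all 7 between the fed groups did too. Called lower in fed 24 h against unfed cells were 3 members, and 1 to 3 when 1 library was left out; called higher were 4, and 3 to 4 in those fits, Sp7 losing its call in 4 of them. All tested genes called lower ran from 1426 (without fed 24 h replicate 1) to 2241 in those fits, against 2159 in full. Signs turned for values that were not called: Runx2 in fed 3 h against unfed cells (0.0094; -0.0238 to 0.0682 with 1 library left out, below 0 without fed 3 h replicate 1 or 2 or unfed replicate 1) and Pth1r in fed 24 h against fed 3 h cells (-0.1984 without fed 24 h replicate 2, up to 0.4285 without fed 24 h replicate 3); the cause was not tested. The stricter filter removed Pth1r, and DESeq2 gave it no adjusted p in fed 24 h against unfed cells. In the fit of 6 libraries it did not pass the filter between the fed groups. Same-numbered libraries did not deviate together (correlations -0.163 to 0.0578), so the numbers are not read as pairs. With the replicate block, the members' calls were 4 higher and 3 lower, 2 and 5, and 5 and 2 in the 3 comparisons, no call changed, and all genes called in fed 24 h against unfed cells were 1901 higher and 2010 lower. Depth limits Pth1r most, with at most 15 counts in any library, and then Sp7, with at most 80.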

Other observations

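Marker lists of other cell types gave further values, summed per library in CPM. The 7 markers of mature osteoblasts and osteocytes, 2 of them testable and Sost at 0, summed to 3.70 to 5.12 in fed 24 h, 1.78 to 2.54 in fed 3 h and at most 2.33 in unfed cells. Nearly all of this sum was Dmp1 (414, 130 and 135 counts) and Phex (265, 171 and 123 counts in the same order). Bglap, Bglap2, Ibsp and Mepe were close to 0, so the sum does not describe the markers as a set. The 6 adipocyte markers summed to 55.3 to 57.8, 61.6 to 66.6 and 52.7 to 53.6 CPM in the same order of groups, with Lep at 0. Most of this sum was Pparg, with 6925, 8489 and 5998 counts per group in that order. Fabp4 (1967, 646 and 1426 counts), Adipoq, Plin1 and Cidec went the other way, each with the fewest counts in fed 3 h cells. The 6 chondrocyte markers summed to between 10.9 and 14.0 CPM over all libraries, with Acan at 0. Osteoclast markers (at most 0.252 CPM) and endothelial markers (at most 0.189 CPM) were close to 0 in every library.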
